A study of Mus musculus with 6 samples.

Results

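The genes described here are the nuclear-encoded genes of the respiratory chain, the set of protein complexes in the inner mitochondrial membrane that turns the oxidation of nutrients into ATP. They were chosen by gene symbol alone, as protein-coding genes whose mm9 symbol starts with *Nduf* (complex I), *Uqcr* (complex III), *Cox4* to *Cox8* (complex IV) or *Atp5* (complex V), or is *Sdha*, *Sdhb*, *Sdhc* or *Sdhd* (complex II). The rule found 88 genes among the 20409 features of the count table, 42 for complex I, 4 for complex II, 8 for complex III, 16 for complex IV and 18 for complex V. Expression was measured by RNA-seq of polyadenylated RNA from duodenal villus epithelium, with 1 library from each of 3 wild-type and 3 double mutant mice. The double mutant mice carried Smad4 fl/fl, Ctnnb exon3 fl/wt and Villin-CreERT2, so that tamoxifen removed Smad4 (loss of function) and stabilized β-catenin (gain of function) in the whole intestinal epithelium, to which the Villin promoter directs the Cre. They received tamoxifen at 0.05 g/kg on 4 consecutive days, and villi were taken 7 days after the first injection. The wild-type mice were uninjected littermates, so that injection and mutation cannot be told apart. Each group held 1 male (replicate 1) and 2 females (replicates 2 and 3), and the age of the mice is not given in the sources used here.

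Complex I (NADH dehydrogenase) and complex II (succinate dehydrogenase) feed electrons into coenzyme Q, complex III passes them to cytochrome c, and complex IV (cytochrome c oxidase) gives them to oxygen. Complexes I, III and IV pump protons, and complex V (ATP synthase) uses the gradient to make ATP. Most subunits are encoded in the nucleus, a small number of core subunits are encoded in mitochondrial DNA, and dedicated assembly factors put the parts together. Villus enterocytes are rich in mitochondria, and absorption of nutrients in these cells depends on ATP.

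Libraries held between 19678507 and 26337318 counts, and 84 of the 88 genes passed the filter on low counts, as did 13346 features in all. *Smad4* fell from 148 ± 30.3 to 31.7 ± 5.4 CPM (counts scaled to a common library size; mean ± SD, n = 3 each; log2 fold change -2.22, adjusted p = 0.000145), and *Ctnnb1*, whose gain-of-function allele lacks an exon but is still transcribed, stood at -0.15 (adjusted p = 0.359). Adjusted p values come from edgeR's quasi-likelihood test with Benjamini-Hochberg adjustment over all 13346 features, a gene is called at an adjusted p under 0.05, CPM are scaled by TMM factors, and a log2 fold change is double mutant minus wild-type. The summed level of 12 villus enterocyte markers was 49631 to 56512 CPM in the wild-type and 28760 to 32260 CPM in the double mutant, with 7 of them called lower and 1 higher, while 7 of 10 crypt and cycling cell markers were called higher (4 to 8 with a library left out). Leukocyte markers (9 in the table) summed to 66.8 to 112 CPM in the wild-type and 49.4 to 85.6 CPM in the double mutant, with 2 of the 5 tested called lower (*Ptprc* -1.29 and *Cd8a* -0.92, list median -0.92), and 9 stromal, endothelial and muscle markers to at most 0.979 and 6.57 CPM. The part of these shifts in cell markers in the results that follow was not tested, and in bulk samples fewer cells of a type and less RNA per cell cannot be told apart. Wild-type replicate 1 stood apart from the rest, with 125 CPM summed over 8 goblet cell markers against 11616 and 11039 CPM in the other wild-type libraries and 4669 to 5064 CPM in the double mutant. Its crypt and cycling cell markers summed to 75.6 CPM against 150 and 162 CPM in those 2 libraries, so the main values are also given without it.

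Promoter sequences are shown for the 3 genes of the c subunit of ATP synthase, because their shares in the sum of the 3 differed between the groups, and for *Sdha*, the called gene with the most copies of a searched motif. Each is the RefSeq sequence on GRCm38.p6 from 250 bases before to 50 bases after the transcription start, on the strand of the gene, with capitals at GCGCA and GCGC separated by any 1 base, or its reverse complement, the core of the site bound by NRF1 (nuclear respiratory factor 1).
Atp5g1 (chr11:96075582-96075881, minus strand): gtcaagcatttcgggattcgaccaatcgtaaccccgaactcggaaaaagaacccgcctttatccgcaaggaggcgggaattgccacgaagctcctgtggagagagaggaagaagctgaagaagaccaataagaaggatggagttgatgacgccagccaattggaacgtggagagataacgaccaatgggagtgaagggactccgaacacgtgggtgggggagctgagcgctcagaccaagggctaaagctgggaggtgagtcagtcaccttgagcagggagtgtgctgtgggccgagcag
Atp5g2 (chr15:102670998-102671297, minus strand): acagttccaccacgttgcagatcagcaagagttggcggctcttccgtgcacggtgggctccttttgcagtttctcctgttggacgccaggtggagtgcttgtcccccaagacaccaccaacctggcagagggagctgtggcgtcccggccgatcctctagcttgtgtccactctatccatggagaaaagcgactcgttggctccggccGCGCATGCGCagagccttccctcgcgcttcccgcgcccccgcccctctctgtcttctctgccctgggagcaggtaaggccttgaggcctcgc
Atp5g3 (chr2:73911277-73911576, minus strand): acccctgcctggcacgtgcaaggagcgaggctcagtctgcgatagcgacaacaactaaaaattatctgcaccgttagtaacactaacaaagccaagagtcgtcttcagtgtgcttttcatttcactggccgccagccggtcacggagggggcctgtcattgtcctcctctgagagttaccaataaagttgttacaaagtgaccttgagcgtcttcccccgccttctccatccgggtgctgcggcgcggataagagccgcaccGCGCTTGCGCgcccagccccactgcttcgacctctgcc
Sdha (chr13:74350191-74350490, minus strand): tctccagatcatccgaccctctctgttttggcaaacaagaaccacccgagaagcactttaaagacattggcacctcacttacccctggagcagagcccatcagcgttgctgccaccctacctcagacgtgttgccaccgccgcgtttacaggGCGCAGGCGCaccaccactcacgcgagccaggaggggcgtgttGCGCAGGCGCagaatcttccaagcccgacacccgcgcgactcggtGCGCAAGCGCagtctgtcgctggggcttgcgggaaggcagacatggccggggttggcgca

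The *Sdha* window held 3 matches, starting at positions -98, -55 and -10, *Atp5g2* held 1 at -42, *Atp5g3* held 1 at 13, and *Atp5g1* held none. A RefSeq promoter was found for 72 of the 88 genes. Of these 72 windows, 17 (23.6%) held this NRF1 motif on either strand, 16 (22.2%) held CCGGAAG, the core of sites bound by ETS factors such as GABP, and 7 (9.72%) held AAGATGGCG, a site of YY1. The shares in all 32851 promoters of the same length were 4.6%, 8.86% and 1.4%, and those in the 9545 promoters matched to tested protein-coding genes were 10.7%, 18.6% and 3.37%. CCGGAAG and AAGATGGCG overlapped in 0 of the 72 windows. Among the 8 called genes with a promoter, 4 held at least 1 of the motifs, against 35 of 72 over all. A match is a run of letters in a window and was not tied to binding or to a level.

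Few of the respiratory chain genes were called, and 3 of those called higher encode assembly factors of complex I and 2 the c subunit of complex V. Of 84 tested genes, 10 were called (11.9%), 8 higher (9.52%) and 2 lower (2.38%), while 36.8% of all tested features were called, 19.7% higher and 17.0% lower. The split changed when a smooth trend on length was removed from each library (a length offset). In that fit 3 genes (3.57%) were called higher and 18 (21.4%) lower, against 17.5% and 21.2% of all features. Without the offset the median log2 fold change was 0.06 over the 84 genes and 0.02 over all features. These genes are more highly expressed than most, with a median of 142 CPM, and among the 1362 tested features at or above that level 51.8% were called. At an unadjusted p under 0.05, 11 of the 84 genes passed against 46.6% of all features. The 6 libraries separated without overlap into wild-type and double mutant for 14 of the 84 genes (16.7%), against 52.4% of all features. A log2 fold change of at least 2 was reached by 1 called gene, *Cox6b2*, against 5.30% of all features. The 95% confidence interval of the fold change lay wholly within a log2 value of 1 to either side of 0 for 76 of the 84 genes and for 6812 of the 13346 features. A gene that was not called is not shown to be unchanged.

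**Figure D1:**
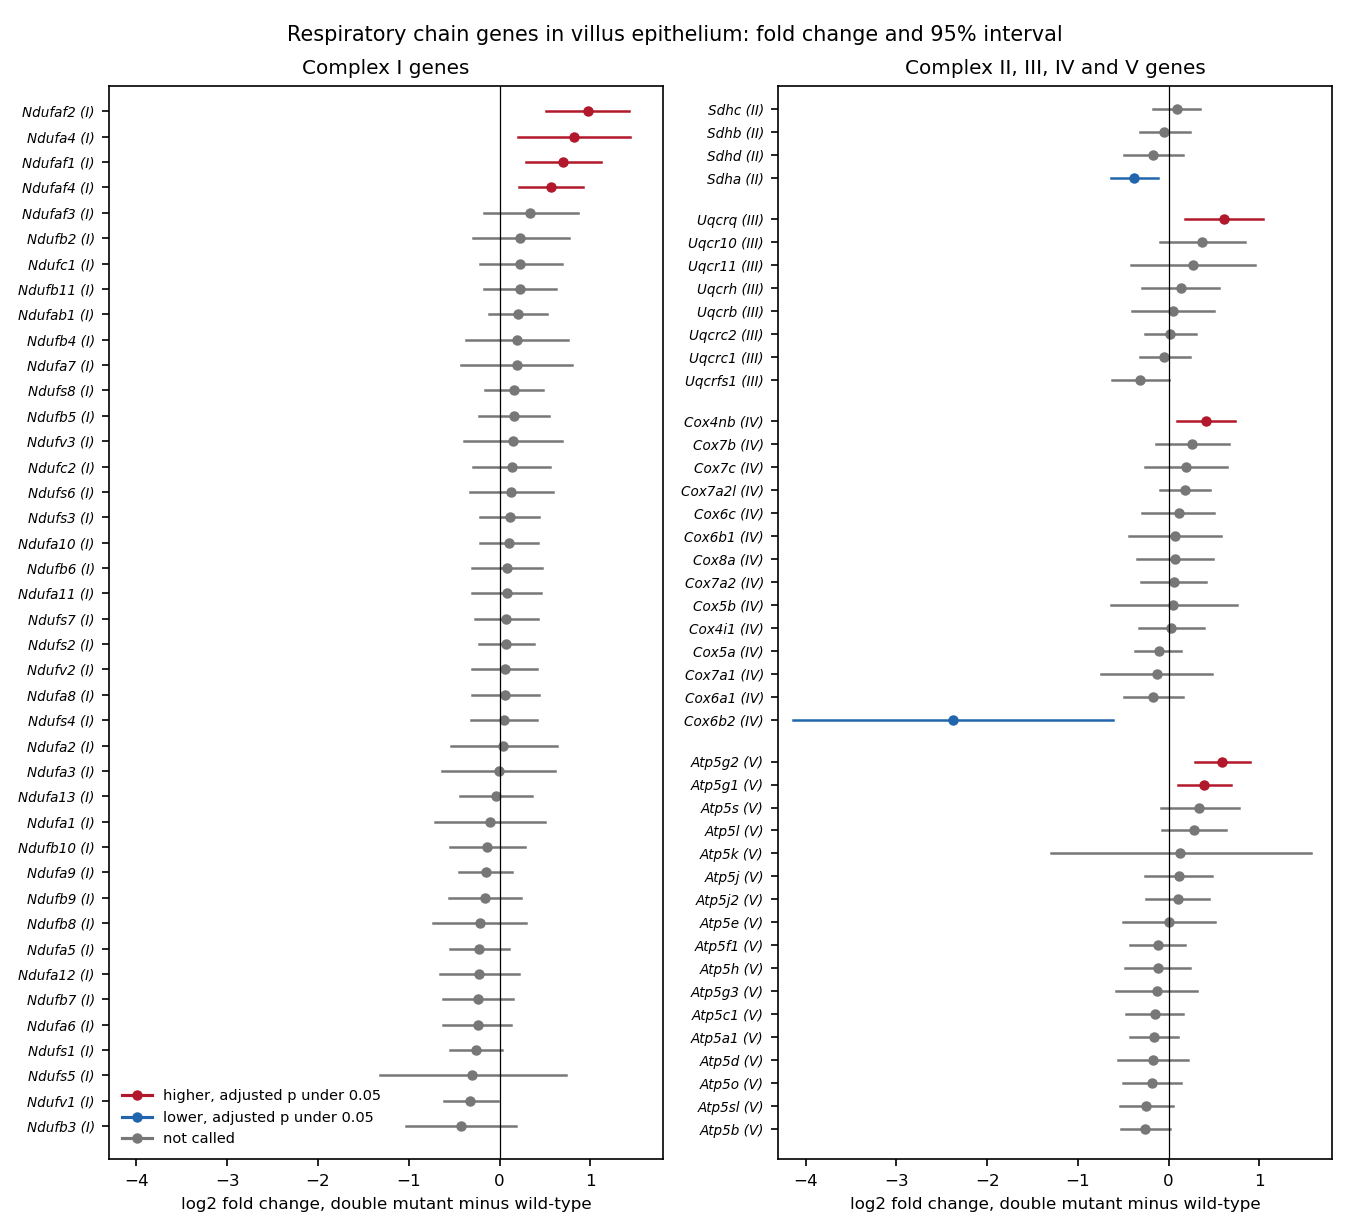
Fitted log2 fold change (points, double mutant minus wild-type, x axis) with its 95% confidence interval (lines) for the 84 tested genes (y axis), with the complex in brackets, red for genes called higher, blue for genes called lower and grey for the rest. The 36 structural subunits of complex I are all grey and lie between -0.43 and 0.23, while *Cox6b2* lies apart at -2.38.

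Complex I is built from a peripheral arm, with an N module that oxidizes NADH and a Q module that reduces coenzyme Q, and a membrane arm that pumps protons. None of its 36 nuclear-encoded structural subunits was called by edgeR, with 0 of 10 in the N module, 0 of 6 in the Q module and 0 of 20 in the membrane arm, and 1 of the 36, *Ndufv1*, had an unadjusted p under 0.05. DESeq2 and limma-voom also called 0 of these subunits. The count changed with the length offset, where 9 of the 36 were called lower (median -0.22), against 21.2% of all features (median -0.07). With the trend taken from other genes 5 were called lower (median -0.19), against 20.6% of all features (median -0.06). Their log2 fold changes ran from -0.43 (*Ndufb3*, a membrane arm subunit) to 0.23 (*Ndufb2*, also of the membrane arm), and 34 of the 36 intervals lay within 1 to either side of 0. Summed over the 36 genes, the level was 4726, 3400 and 4079 CPM in wild-type replicates 1 to 3 and 3491, 4573 and 3915 CPM in double mutant replicates 1 to 3. The double mutant libraries all fell inside the range of the wild-type ones. *Ndufv1*, which binds the flavin that takes electrons from NADH, had 300.0, 252 and 250 CPM in the wild-type and 188, 236 and 220 CPM in the double mutant. Its groups did not overlap, and its log2 fold change of -0.32 (SE 0.129) missed the threshold (adjusted p = 0.0857). *Ndufb3*, with the lowest value of the complex, had 96.4, 64.3 and 74.5 CPM in the wild-type and 37.4, 74.1 and 63.7 CPM in the double mutant (adjusted p = 0.239). In that gene double mutant replicates 1 and 3 lay below all wild-type libraries and replicate 2 did not. *Ndufs5* had the widest interval of the complex, from -1.32 to 0.73. *Ndufb9*, the gene with the highest level of the complex at 347 CPM per kilobase of transcript, was at -0.16 (adjusted p = 0.5).

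The assembly factors of complex I, which help to build the enzyme but are not part of it, were only in part covered by the rule. Of the 4 genes named *Ndufaf* in the mm9 annotation, 3 were called higher, against 19.7% of all features, and 2 with the length offset, against 17.5%. The fourth, *Ndufaf3*, was at 0.34 (adjusted p = 0.269). *Ndufaf2*, which binds a late assembly intermediate, had 4.29, 4.68 and 4.55 CPM in the wild-type and 7.23, 10.2 and 9.07 CPM in the double mutant. Every double mutant library lay above every wild-type library, and the rise of 0.97 (SE 0.201, 95% interval 0.51 to 1.43, adjusted p = 0.00639) was the largest among the 84 genes chosen by mm9 symbol. It was called with each of the 6 libraries left out in turn. *Ndufaf1*, which works on the early membrane arm, had 9.91, 8.87 and 8.09 CPM in the wild-type and 13.9, 17.4 and 12.3 CPM in the double mutant, a rise of 0.70 (SE 0.182, adjusted p = 0.017) that was called in 3 of the 6 fits with a library left out. *Ndufaf4*, another early assembly factor, had 22.7, 18.9 and 17.5 CPM in the wild-type and 30.0, 32.8 and 24.9 CPM in the double mutant, a rise of 0.57 (SE 0.156, adjusted p = 0.021), called in 2 of those 6 fits. These groups did not overlap in either gene. The 3 genes are expressed at low levels, and the 4 factors together made up 40.0 to 54.4 CPM in the wild-type and 63.2 to 77.6 CPM in the double mutant.

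*Ndufa4* bears a complex I name, while its protein copurifies with complex IV. It had 144, 70.3 and 82.9 CPM in the wild-type and 151, 203 and 171 CPM in the double mutant. The lowest double mutant library lay just above wild-type replicate 1, and the fitted rise was 0.82 (SE 0.265, adjusted p = 0.0444). Without wild-type replicate 1 the rise was 1.19 (adjusted p = 0.000416), and it was not called in the other 5 fits with a library left out. Its paralog *Ndufa4l2*, known from low-oxygen responses, was near the detection limit, with 0.0939 to 0.25 CPM over the 6 libraries, where 3 counts correspond to 0.125 to 0.163 CPM, and it was not tested.

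Complex II is the only respiratory complex that is also an enzyme of the citrate cycle, and all of its subunits are nuclear-encoded. *Sdha*, the flavoprotein that oxidizes succinate (chr13:74459702-74487728 in mm9), had 1002, 923 and 827 CPM in the wild-type and 677, 720 and 715 CPM in the double mutant. All double mutant libraries lay below all wild-type libraries, and *Sdha* fell by 0.38 on the log2 scale (SE 0.115, 95% interval -0.64 to -0.12, adjusted p = 0.0307). The call is at the edge of the test, since it was made in 1 of the 6 fits with a library left out and gave an adjusted p of 0.0648 without wild-type replicate 1. *Sdhb*, the iron-sulfur subunit, had 416, 326 and 361 CPM in the wild-type and 338, 377 and 353 CPM in the double mutant (log2 fold change -0.05, adjusted p = 0.797). The membrane anchors *Sdhc* (0.09, adjusted p = 0.56) and *Sdhd* (-0.17, adjusted p = 0.402) were not called either, and their groups overlapped. All 4 intervals lay within 1 to either side of 0. The summed level of the complex was 2264, 1911 and 1876 CPM in the wild-type and 1653, 1860 and 1753 CPM in the double mutant, without overlap, and its log2 ratio of -0.20 became 0.00 when the sum was taken as a share of the library total.

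In complex III the called gene was *Uqcrq*, a small supernumerary subunit without a redox centre. It had 242, 166 and 212 CPM in the wild-type and 244, 364 and 338 CPM in the double mutant, a rise of 0.61 (SE 0.187, adjusted p = 0.0337). Double mutant replicate 1 lay barely above wild-type replicate 1, and the rise was called in 2 of 6 fits with a library left out, with 0.74 (adjusted p = 0.0123) when that was wild-type replicate 1. *Uqcr10*, the next supernumerary gene by rise, was at 0.37 (adjusted p = 0.19), and without wild-type replicate 1 it was called higher. *Uqcrfs1*, the Rieske iron-sulfur protein of the catalytic core, had 619, 469 and 486 CPM in the wild-type and 401, 461 and 410 CPM in the double mutant. The groups did not overlap, and the log2 fold change of -0.31 (SE 0.137) was not called (adjusted p = 0.109). *Uqcrc1*, a core protein with the highest level of the complex (540 CPM per kilobase), was at -0.05 (adjusted p = 0.794). The 5 supernumerary genes had a median of 0.27 and the 3 core genes -0.05, and no test was made between them.

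Complex IV had 0 calls among its 10 widely expressed subunit genes by edgeR, DESeq2 and limma-voom, and 0 of the 10 had an unadjusted p under 0.05. Their log2 fold changes ran from -0.17 (*Cox6a1*) to 0.26 (*Cox7b*), all with intervals within 1 to either side of 0. *Cox6a1* had the highest level of the complex, with 1256 CPM per kilobase, and 833, 681 and 763 CPM in the wild-type against 575, 778 and 674 CPM in the double mutant (adjusted p = 0.391). *Cox4i1*, which contributes to the regulation of the enzyme by ATP, was at 0.03 (adjusted p = 0.89). *Cox7a2l*, a factor of supercomplexes rather than a subunit of the enzyme, was at 0.18 (adjusted p = 0.286). The gene *Cox4nb* rose by 0.41 (SE 0.14, adjusted p = 0.048), from 19.0, 15.4 and 15.5 CPM to 23.4, 22.0 and 20.9 CPM, but it is now named *Emc8*. It was called in 1 of 6 fits with a library left out, and not by DESeq2 (adjusted p = 0.0635). *Emc8* encodes a part of the endoplasmic reticulum membrane complex and no part of cytochrome c oxidase.

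Of the 4 tissue-restricted forms of complex IV subunits, 2 were high enough to test. *Cox6b2*, the form of subunit VIb best known from testis, had 3.46, 0.598 and 2.58 CPM in the wild-type and 0.469, 0.0928 and 0.712 CPM in the double mutant. Wild-type replicate 2 lay below double mutant replicate 3, so the groups overlapped, and the fold change of -2.38 had a wide interval (SE 0.771, 95% interval -4.14 to -0.61, adjusted p = 0.0416). It was called in 1 of 6 fits with a library left out and stood at -1.90 (adjusted p = 0.0797) without wild-type replicate 1. *Cox6b1*, the common form, made up over 99% of the pair in every library, since *Cox6b2* held 0.241% to 0.799% in the wild-type and 0.0209% to 0.205% in the double mutant, and *Cox6b1* itself was at 0.07 (adjusted p = 0.826). *Cox7a1*, the form known from heart and skeletal muscle, was in contrast well expressed, with 117, 58.1 and 79.8 CPM in the wild-type and 60.0, 87.4 and 85.8 CPM in the double mutant. That was 29.9% ± 3.47 of the summed level of *Cox7a1* and *Cox7a2* in the wild-type and 27.6% ± 3.96 in the double mutant (SD, n = 3 each), and its fold change was not called (-0.13, adjusted p = 0.731). The muscle markers *Myh11* and *Des* were at most 0.101 CPM in every library except double mutant replicate 1, where they were at 2.21 and 1.64 CPM. *Cox6a2* (0.208 to 0.464 CPM) and *Cox4i2* (0 to 0.0939 CPM), the other muscle and lung forms, were too low to test.

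In complex V the called genes were 2 of the 3 that encode the c subunit, the ring that turns as protons pass. The 3 genes *Atp5g1*, *Atp5g2* and *Atp5g3* differ in their mitochondrial targeting sequence and encode the same mature protein, and over the last 228 bases of coding sequence *Atp5g1* and *Atp5g2* were 85.1% identical, *Atp5g1* and *Atp5g3* 79.8%, and *Atp5g2* and *Atp5g3* 78.5%. *Atp5g2* (chr15:102493299-102501478 in mm9) had 75.0, 55.8 and 66.0 CPM in the wild-type and 91.0, 104 and 102 CPM in the double mutant. The groups were well apart, and the rise of 0.59 (SE 0.133, 95% interval 0.29 to 0.90, adjusted p = 0.00921) was called with each library left out in turn. With the length offset it was 0.26 and was not called (adjusted p = 0.123). *Atp5g1* (chr11:95930166-95936984 in mm9) had 184, 137 and 155 CPM in the wild-type and 196, 221 and 209 CPM in the double mutant, a rise of 0.39 (SE 0.13, adjusted p = 0.0422) that was called in 1 of 6 such fits, the fit without wild-type replicate 1 (0.51, adjusted p = 0.00925). *Atp5g3* (chr2:73746504-73749383 in mm9), the most abundant of the 3, had 1024, 682 and 774 CPM in the wild-type and 589, 882 and 791 CPM in the double mutant, with overlap and no call (-0.13, adjusted p = 0.626).

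The make-up of the c subunit messages differed between the groups while the log2 ratio of their sum was 0.01, at 1283, 876 and 995 CPM in the wild-type and 876, 1207 and 1102 CPM in the double mutant. *Atp5g3* gave 79.8%, 77.9% and 77.8% of the sum in the wild-type and 67.2%, 73.1% and 71.8% in the double mutant. *Atp5g1* went from 15.2% ± 0.737 to 19.9% ± 2.18 and *Atp5g2* from 6.28% ± 0.404 to 9.42% ± 0.889 (SD, n = 3 each). None of these shares overlapped between the groups. The 3 shares add up to the whole and so are not independent, the genes were picked after their calls were seen, and the shares were not tested. They are shares of counts scaled per library and not per length, so that they compare libraries and not the number of transcripts of 1 gene with another. *Atp5g1* has 1 and *Atp5g2* 3 near-identical copies elsewhere in the mm9 genome, and how reads shared with such copies were counted is not given in the sources used here.

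**Figure D2:**
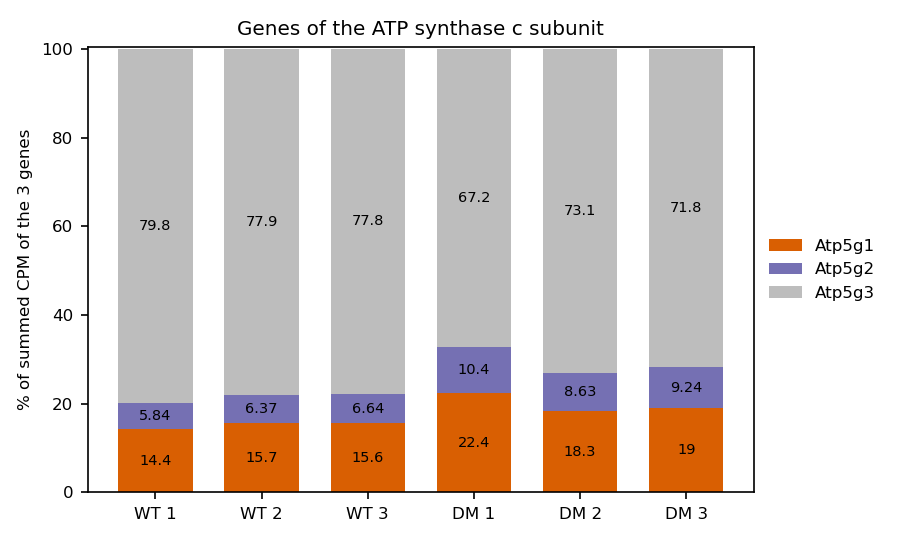
Share of each c subunit gene (colours) in the summed CPM of *Atp5g1*, *Atp5g2* and *Atp5g3* (y axis, percent) in each wild-type (WT) and double mutant (DM) library (x axis). The grey *Atp5g3* part is 77.8% to 79.8% in the wild-type and 67.2% to 73.1% in the double mutant libraries.

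The other parts of ATP synthase were not called by edgeR. *Atp5b*, the catalytic β subunit and at 1301 CPM per kilobase the highest of the 84 nuclear-encoded genes tested, had 2956, 2602 and 2590 CPM in the wild-type and 2158, 2397 and 2251 CPM in the double mutant. Its groups did not overlap, and its log2 fold change of -0.26 (SE 0.118) had an adjusted p of 0.117 by edgeR, while DESeq2 called it lower. *Atp5a1*, the α subunit, had 2495, 2260 and 2167 CPM in the wild-type and 2038, 2155 and 1985 CPM in the double mutant, again without overlap (-0.16, adjusted p = 0.298). The 5 genes of the catalytic head had a median of -0.16, the 4 of the peripheral stalk -0.12 and the 3 other membrane subunits 0.13. *Atp5k*, a small membrane subunit, had the widest interval of the complex (-1.30 to 1.57) and ranged from 36.2 to 128 CPM within the wild-type. *Atp5s* (0.34, adjusted p = 0.182) and *Atp5sl* (-0.25, adjusted p = 0.176), which bear *Atp5* names and are no structural subunits, were not called, and *Atp5l-ps1*, a copy of *Atp5l*, was at most 0.0928 CPM.

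**Figure D3:**
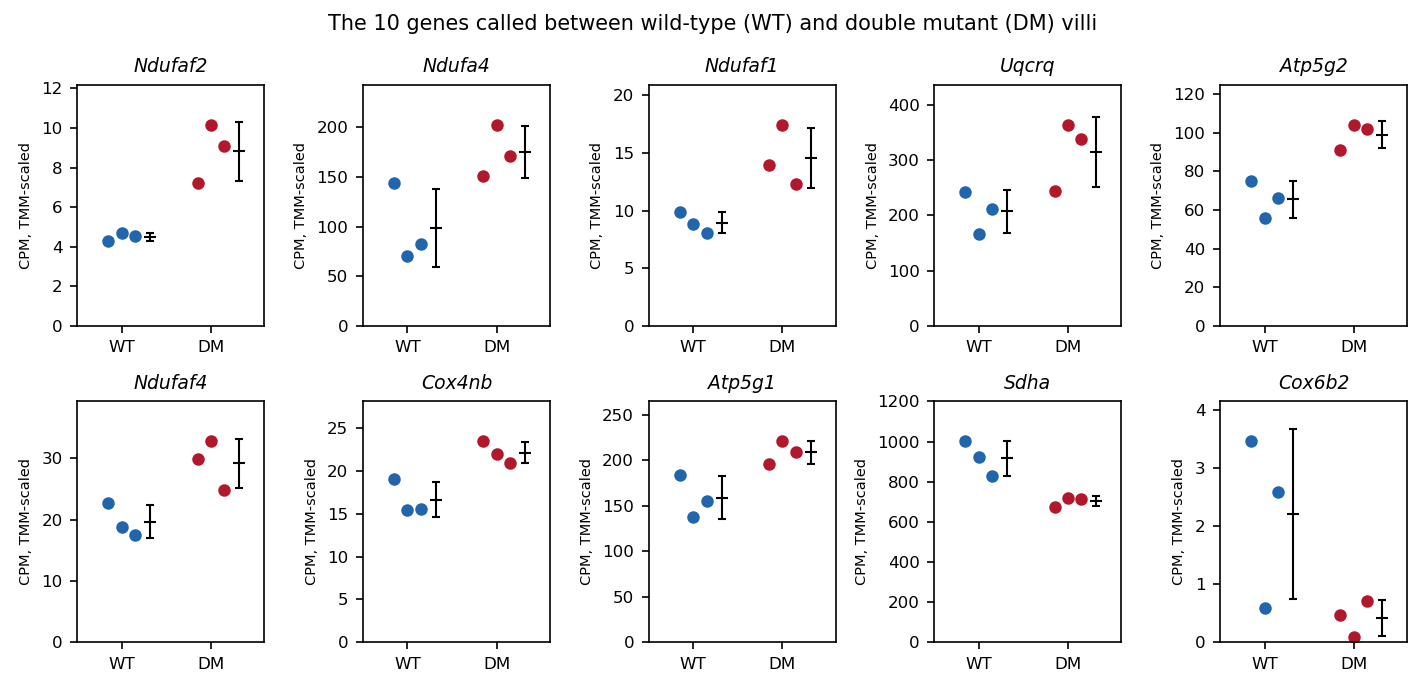
CPM scaled by TMM factors (y axis, each panel with its own scale from 0) of the 10 called genes in the 3 wild-type (WT, blue) and 3 double mutant (DM, red) libraries, with the mean and SD beside the points. The groups overlap only for *Cox6b2*, where wild-type replicate 2 (0.598 CPM) lies under double mutant replicate 3 (0.712 CPM).

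Without overlap, 9 genes (10.7%) lay higher and 5 (5.95%) lower in the double mutant, against 28.1% and 24.2% of all features. The 5 that lay lower were *Ndufv1*, *Sdha*, *Uqcrfs1*, *Atp5a1* and *Atp5b*. The 9 that lay higher were the 8 genes called higher, that is *Ndufaf1*, *Ndufaf2*, *Ndufaf4*, *Ndufa4*, *Uqcrq*, *Cox4nb*, *Atp5g1* and *Atp5g2*, together with *Atp5s*. By complex, the median log2 fold change was 0.07 for complex I, -0.11 for complex II, 0.09 for complex III, 0.06 for complex IV and -0.12 for complex V.

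Lists of genes around the chain, also chosen with earlier results known, are given by their counts, to be read against the 36.8% of all features that were called. Of the 13 subunits encoded in mitochondrial DNA, 0 were called by edgeR and by limma-voom (median -0.17), 1 was called higher by DESeq2 and 1 had an unadjusted p under 0.05. Their median was 0.06 without wild-type replicate 1 and -0.46 with the length offset. The summed level of the 13 was 69516, 42064 and 46857 CPM in the wild-type and 47845, 40252 and 43325 CPM in the double mutant. *mt-Co1*, the catalytic subunit of complex IV, had the highest level of them, at 20703 to 32953 CPM in the wild-type and 17856 to 22615 CPM in the double mutant (-0.34, adjusted p = 0.199). Its wild-type mean was 25532 CPM, against 121 for *mt-Co2*, 96.8 for *mt-Co3* and 59.4 for *mt-Atp6*. How reads mapping to several places were counted is not given, and their part in these levels was not tested. Of 41 further assembly factors in the table, 6 (14.6%) were called higher and 0 lower (median 0.22). With the length offset, against 17.5% and 21.2% of all features, 5 of them were called higher and 3 lower (median 0.08). Those of complex I among them include *Acad9* and *Tmem186*, which were called, and *Ecsit* (0.20), *Tmem126b* (-0.10), *Timmdc1* (-0.04), *Foxred1* (0.19) and *Nubpl* (0.89, adjusted p = 0.0543), which were not. Among the 41 the largest rise was that of *Bcs1l*, which inserts the Rieske protein into complex III, with 2.21, 3.65 and 3.03 CPM in the wild-type and 9.48, 7.56 and 6.36 CPM in the double mutant (1.40, SE 0.265, adjusted p = 0.00432). *Lrpprc*, which stabilizes mitochondrial messages, rose by 1.03 (SE 0.17, adjusted p = 0.0023). The rest of the 6 were *Uqcc2* (0.92), *Tmem186* (0.68), *Tmem70* (0.68), an assembly factor of ATP synthase, and *Acad9* (0.51).

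Of 13 genes of coenzyme Q synthesis, 5 were called higher and 1 lower (46.2% called, median 0.40), with the largest rise in *Pdss1*, which makes the polyprenyl tail (0.84, SE 0.173, adjusted p = 0.00635), and the fall in *Coq10b* (-0.47, adjusted p = 0.0187). Of 14 genes of the citrate cycle, which delivers the NADH and succinate, 5 were called lower and 1 higher (42.9% called, median -0.12). Without wild-type replicate 1 the median of these 14 was 0.05, again with 5 called lower and 1 higher. *Ogdh*, of the 2-oxoglutarate dehydrogenase complex, had 1955, 1822 and 1569 CPM in the wild-type and 1032, 896 and 930 CPM in the double mutant (-0.90, SE 0.129, adjusted p = 0.0012), and *Cs*, citrate synthase, fell by 0.83 on the log2 scale (adjusted p = 0.00114). *Suclg2*, of the succinyl-CoA ligase, rose by 0.70 (adjusted p = 0.00237). Among 11 partners of the chain, 3 were called higher and 2 lower (45.5%). By direction, all features were called higher in 19.7% and lower in 17.0%, and no test was made between these lists and all features. *Gpd2*, which passes electrons from glycerol 3-phosphate to coenzyme Q, had 799, 796 and 699 CPM in the wild-type and 440, 329 and 365 CPM in the double mutant (-1.02, SE 0.137, adjusted p = 0.000954), *Dhodh*, of pyrimidine synthesis, rose by 0.90 (adjusted p = 0.0226), and *Cyc1*, the cytochrome c1 of complex III, whose symbol keeps it out of the rule, was at -0.10 (adjusted p = 0.615).

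Among 10 regulators of respiratory genes, 2 were called higher and 2 lower (40%). *Myc* had 0.417, 1.90 and 2.53 CPM in the wild-type and 18.6, 15.5 and 21.0 CPM in the double mutant (3.53, SE 0.523, adjusted p = 0.00234), and *Pprc1*, a coactivator of the PGC-1 family, rose by 2.26. The coactivators *Ppargc1a* and *Ppargc1b*, known to drive mitochondrial biogenesis, went down, with -0.63 (adjusted p = 0.0396, called in 2 of 6 fits with a library left out) and -0.77 (adjusted p = 0.0035, called in all 6), and *Tfam*, which packages mitochondrial DNA, was at 0.22 (adjusted p = 0.244). *Nrf1*, *Gabpa* and *Yy1*, whose motifs were searched in the promoters, were at -0.12, -0.28 and -0.14 and were not called. Mitochondrial ribosomal protein genes were called higher in 32 of 76 (42.1%) and lower in 0 (median 0.44), and cytosolic ribosomal protein genes higher in 73 of 79 (92.4%) and lower in 0 (median 1.39), against 19.7% of all features called higher. With the length offset the mitochondrial ones were called higher in 20 and lower in 3 (median 0.29), and the cytosolic ones higher in 68 and lower in 0 (median 1.09). Of all features 17.5% were called higher and 21.2% lower in that fit.

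**Figure D4:**
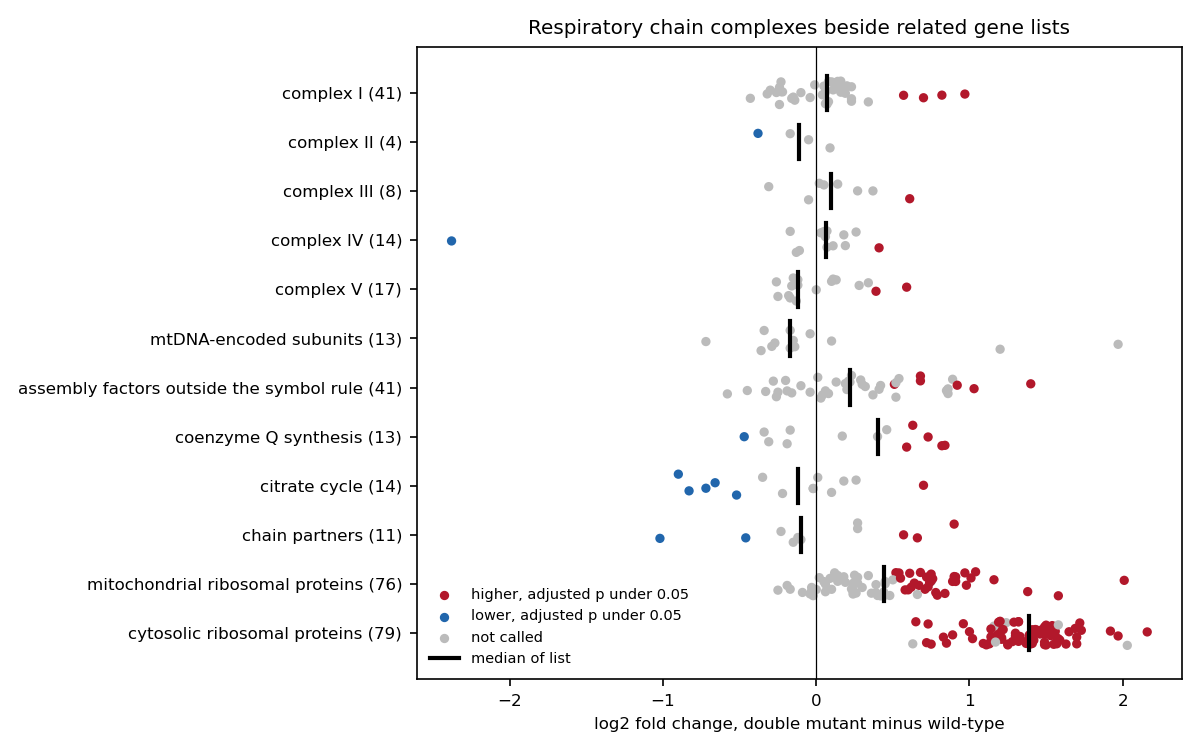
Log2 fold change (x axis, double mutant minus wild-type) of every tested gene in the 5 complexes and in the related lists (y axis, number of tested genes in brackets), coloured by call, with a bar at the median of each list. The medians of the 5 complexes lie between -0.12 and 0.09, and those of the mitochondrial and cytosolic ribosomal protein genes at 0.44 and 1.39.

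Within each group the respiratory chain genes moved up and down together from library to library. Of the 84 genes, 82 lay above the mean of their own group in wild-type replicate 1 and 2 in wild-type replicate 2, while 6 did so in double mutant replicate 1 and 79 in double mutant replicate 2. The median shift was 0.23, -0.24 and 0.01 on the log2 scale in the wild-type libraries and -0.17, 0.21 and 0.00 in the double mutant libraries. The shifts of replicates 1 and 2 of both groups are larger than the median difference of 0.06 between the groups, and those of the replicates numbered 3 are smaller. The genes are also short, with a median transcript of 891.5 bases against 2641 over tested genes in the annotation. Of the chain 56.8% were under 1000 bases, against 11%. The 38 tested chain genes of over 1000 bases shifted by 0.21, -0.18, -0.03, -0.08, 0.14 and -0.04 in the same order. Their median log2 fold change was 0.06, as in the 46 shorter ones. With the length offset it was -0.07 in the longer and -0.27 in the shorter ones (all features -0.07). The part of length in these shifts was not tested. Other short transcripts, without the chain and ribosomal protein genes, shifted with the same signs in those 4 libraries but by less. Those of up to 600 bases were at 0.06, -0.08, 0.04, -0.11, 0.09 and 0.04 in the same order, and those of over 4000 bases had the opposite signs.

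**Figure D5:**
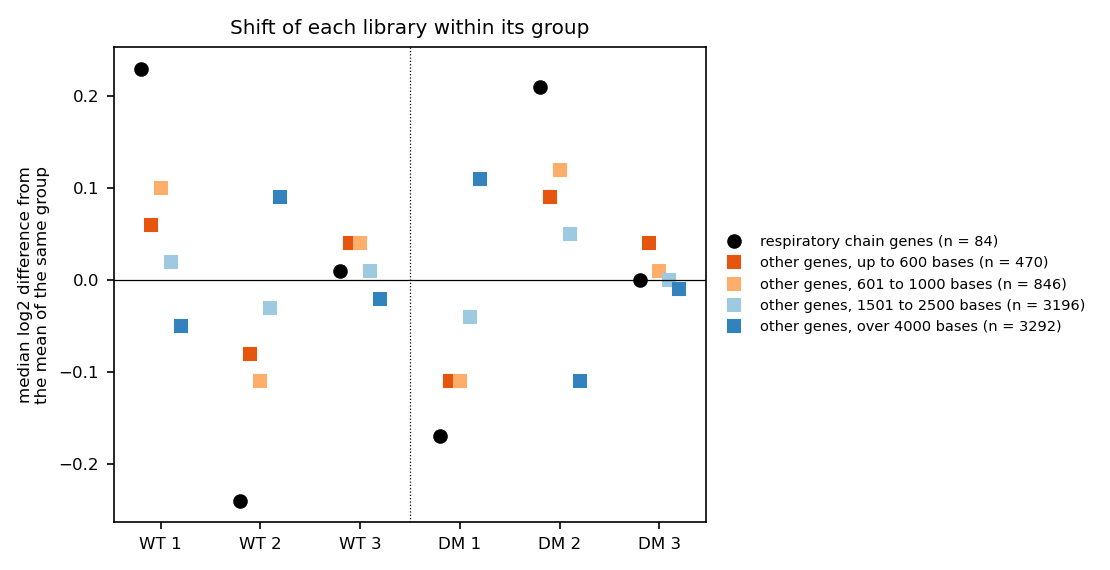
Median log2 difference of a library from the mean of its own group (y axis) for the 84 respiratory chain genes (black) and for other tested genes by transcript length (coloured squares), in each wild-type (WT) and double mutant (DM) library (x axis). The black points reach 0.23 and -0.24 in wild-type replicates 1 and 2 and -0.17 and 0.21 in double mutant replicates 1 and 2, and the shortest other genes have the same signs there.

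Length also went with the difference between the groups, since other genes of up to 600 bases had a median log2 fold change of 0.19 and those of over 4000 bases -0.10. The fit was therefore repeated with a smooth trend on length removed from each library. The median of the chain then went from 0.06 to -0.22 (all features -0.07), and 21 genes were called, 3 higher and 18 lower, against 38.7% of all features called and 21.2% called lower. With the trend taken only from genes outside the chain and the ribosomes, 15 were called, 3 higher and 12 lower (median -0.18), against 38.3% and 20.6%. The 3 genes called higher in both were *Ndufaf1*, *Ndufaf2* and *Uqcrq*, and *Sdha* and *Cox6b2* were called lower in both, while *Ndufa4*, *Ndufaf4*, *Cox4nb*, *Atp5g1* and *Atp5g2* were called in neither. Of these, *Cox4nb* (0.41) and *Atp5g1* (0.39) kept their log2 fold changes under the length offset and *Ndufaf4* was at 0.49. *Ndufa4* was at 0.49 in place of 0.82 and *Atp5g2* at 0.26 in place of 0.59. The offset rests on the length of 1 chosen transcript per gene. That length was 1521 bases for *Uqcrq* against 434 for *Uqcr10*. It was 4933 bases for *Cox4nb* and 4715 for *Atp5g1*, against 647 for *Atp5g2*. The effect of another choice of transcript on these calls was not tested. The genes newly called lower in both were *Ndufv1*, *Ndufa5*, *Ndufa6*, *Ndufb3*, *Ndufb7*, *Uqcrfs1*, *Cox5a*, *Cox6a1*, *Atp5b* and *Atp5o*. Whether the length trend is technical was not tested.

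Leaving out libraries also changed which genes were called. Without wild-type replicate 1, 10 of the 84 genes were called higher and 0 lower, against 37.4% of all features, with a median of 0.19. With wild-type replicate 2 or 3 left out 3 genes were called, against 27.3% and 28.9% of all features. With double mutant replicate 1 or 3 left out 4 were called, against 30.7% and 26.5%, and with double mutant replicate 2 left out 2, against 25.1%, so that fewer features were called in all 5 of these fits. *Ndufaf2* and *Atp5g2* were called higher in all 6 of these fits. With library size alone in place of TMM factors the median of all features moved from 0.02 to 0.22 and that of the chain to 0.25, with 10 genes (11.9%) called higher and 0 lower, against 28% and 10.7% of all features.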

How the data were processed

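RNA from the villus epithelium of 3 wild-type and 3 double mutant mice was sequenced as polyA libraries (150 bp paired-end reads). The authors used HISAT2 for alignment to mm9 and featureCounts for read counts, which were deposited unnormalized and unpooled in a table holding every mouse as its own column. Strand and multi-mapping settings are not given in the sources used here. Samples were grouped by their labels, and 0 sample columns were left unused. Symbols, positions and transcript lengths (the coding transcript with the longest coding sequence) came from the GENCODE annotation of mm9, which holds 20032 of 20073 Ensembl identifiers; promoters came from RefSeq (GRCm38.p6).

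Genes were kept by filterByExpr, scaled by TMM and tested with glmQLFit (robust) and glmQLFTest of edgeR 4.0.16 in R 4.3.3, fitted on the whole table without covariates. SEs were derived from the log2 fold change and its F statistic. The alternatives were DESeq2 1.42.0, limma-voom (limma 3.58.1), RLE, upper-quartile and library-size scaling, other filters, a replicate block, sex, a length offset (loess, span 0.3) and each library left out in turn. A length trend without chain and ribosomal protein genes and a choice of members by RefSeq names were added after the data were seen. Near-identical copies were sought with blastn (BLAST+ 2.17.0; at least 95% identity over 80% of the coding sequence). The fitting script was tested on simulated data. Intervals cover the spread between these mice, with 3 counts as the detection floor.

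The members, the gene lists and the tests were chosen with earlier results of these data known. Genes named are the *Sdh* genes, the 2 largest rises and falls of each other complex, its highest gene, tissue-restricted forms and their counterparts, genes past a log2 fold change of 2, the largest called change in each direction of the other lists, and *Cyc1*, *Tfam*, *Ppargc1a*, *Myc*, *Smad4* and *Ctnnb1*. Other genes, the remaining called ones among them, were named after their values were seen. Protein sequences were not used here.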

Additional observations from a re-analysis of the deposited data

How the results depend on the processing

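Of 84 genes, 10 were called by edgeR, between 9 and 10 with DESeq2, limma-voom, upper-quartile scaling, sex as a covariate or library size alone, and 8 with RLE. A 1 CPM filter gave 9 of 83 (40.8% of all features) and no filter 7 of 88 (23.3%). The replicate number as a block gave 5 (28.7% of all features), the length offset 21, and a log2 fold change of at least 1 left 1. Leaving out a library gave 2 to 10. The replicate numbers did not pair the samples, since same-numbered libraries had correlations of 0.0224, -0.109 and 0.0123 between their deviations from the group means, and not every library correlated best with its own number. Past a log2 fold change of 2 the count of 1 became 0 with library size alone, limma-voom, the 1 CPM filter and sex, and 0 to 1 with a library left out.

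Under the length offset the medians were -0.20 for complex I, -0.29 for complex II, -0.12 for complex III, -0.27 for complex IV and -0.27 for complex V, and with the trend from other genes -0.13, -0.27, -0.10, -0.20 and -0.23. With library size alone they were 0.27, 0.09, 0.29, 0.26 and 0.07. With a library left out they ran from -0.05 to 0.20 (complex I), -0.18 to 0.01 (II), -0.03 to 0.28 (III), -0.08 to 0.23 (IV) and -0.22 to 0.05 (V). As shares of the library total the log2 ratios of the sums were 0.21 (complex I), 0.00 (II), 0.24 (III), 0.23 (IV) and 0.06 (V). With library size alone, where 38.6% of all features were called (28% higher), 49 mitochondrial ribosomal protein genes and 15 other assembly factors were called. With a library left out these were 18 to 38 and 4 to 12, coenzyme Q synthesis 3 to 7 and chain partners 2 to 4. The extremes often came without wild-type replicate 1, and the cause was not tested. With 3 mice a group, small changes are within the error of the test.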

Other observations

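The symbols of the mm9 annotation miss some genes of the chain that have since been renamed. By RefSeq names the rule would hold 90 genes, with 6 gained and 4 lost (*Cox4nb*, *Atp5s*, *Atp5sl* and *Atp5l-ps1*), of which 87 were tested, 8 called higher and 2 lower, with a median log2 fold change of 0.07. The gained genes are *Ndufaf5* to *Ndufaf8* and the ATP synthase subunit genes *Atp5mpl* and *Atp5md*. *Ndufaf6*, an assembly factor of complex I listed as *2310030N02Rik* in the mm9 annotation, had 3.75, 2.07 and 2.53 CPM in the wild-type and 4.88, 6.45 and 5.17 CPM in the double mutant, a rise of 0.98 (SE 0.285, edgeR adjusted p = 0.0273) without overlap between the groups. *Ndufaf5* lay at 5.55 to 7.03 CPM in the wild-type and 8.12 to 9.23 CPM in the double mutant (0.51, adjusted p = 0.0586), *Ndufaf7* was at 0.34 (adjusted p = 0.136) and *Ndufaf8* at 0.19 (adjusted p = 0.459). Of all 8 complex I assembly factors named *Ndufaf*, 4 were thus called higher and 0 lower, against 19.7% and 17.0% of all features. With the length offset 2 were called higher, against 17.5% of all features. With a library left out 1 to 5 of the 8 were called, and *Ndufaf6* was called in 2 of those 6 fits. *Atp5mpl* (0.25, adjusted p = 0.376) and *Atp5md* (0.20, adjusted p = 0.383) were not called.

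Over the tested genes the highest level per kilobase of transcript was 140 times the lowest in complex I, 4.54 times in complex II and 3.15 times in complex III. It was 525 times the lowest in complex IV and 307 times in complex V, where the lowest genes were the tissue-restricted *Cox6b2* and *Atp5s*, which is no structural subunit. In complex I the lowest subunit gene was *Ndufb2*, with 2.48 CPM per kilobase against a median of 96.1 over the 41 tested genes of the complex, a value that depends on the transcript chosen for its length.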
